A study of Equus asinus with 6 samples.

Results

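The cytosolic ribosomal proteins were taken as the rows of the gene count table whose symbol follows the naming pattern of the family (RPL or RPS with a number, an optional letter and an optional further number) or is RPLP0, RPLP1, RPLP2 or RPSA. This rule found 78 of the 20873 genes of the table, 48 named for the large and 30 for the small ribosomal subunit, and it used no measured value. Of 79 standard ribosomal protein genes, 73 were among the 78 rows, and the other 5 rows were paralogs (RPL3L, RPL7L1, RPL22L1, RPL26L1 and RPS27L). RNA came from the longissimus dorsi, the long back muscle, of Guangling donkeys, a donkey breed (Equus asinus), aged 24 months. The high IMF group held 3 libraries from muscle of high intramuscular fat content, the fat held inside the muscle itself, and the low IMF group 3 libraries from muscle of low intramuscular fat content. No treatment, genotype, sex or measured fat content is given in the sources used here, breed, age and tissue were common to both groups, and each group is known only by its label. The labels do not state whether each library is from an animal of its own, and p-values here cover only the spread among these 6 libraries, which may be technical.

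The cytosolic ribosome is the machine that reads mRNA and links amino acids into protein. Its large subunit joins the amino acids and its small subunit holds and decodes the mRNA, and each is built from ribosomal RNA and a fixed set of ribosomal proteins. Most ribosomal protein mRNAs start with a tract of pyrimidines, the TOP tract, through which their translation is set as a group by the growth-sensing kinase MTOR and the RNA-binding protein LARP1. In skeletal muscle, ribosome number is known to set the capacity to make contractile protein, and striated muscle carries a paralog of RPL3, RPL3L, that is scarce in most other tissues.

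The libraries held 39052998 to 47494157 assigned reads, and the 78 genes together held 1187728 to 1855241 of them. The lowest count of any member in any library was 123 reads (RPL22L1), and all 78 members passed the filter on low counts. Low IMF replicates 2 and 3 stood closest to each other: the median member differed by 0.04 on the log2 scale between them, against 0.10 to 0.19 for the 5 other pairs within a group. Their counts still differed beyond sampling noise (chi-square per degree of freedom of 7.9 over 14887 genes, against 206 to 596 for the other pairs), so they were kept as 2 libraries. Skeletal muscle genes were abundant in all 6 libraries; of the listed genes only PVALB was at 0, in high IMF replicate 1 and low IMF replicate 1. The 20 listed fibre genes summed to 149200, 169700 and 280100 CPM in the high IMF group (in replicate order, as throughout) and to 191200, 285000 and 273100 CPM in the low IMF group, where CPM is the read count scaled to library size after adjustment of the library totals by the trimmed mean of M-values (TMM).

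Ribosomal protein transcripts were abundant. In bulk tissue such as this, fewer cells of a type and less RNA per cell cannot be told apart. Levels were compared between genes on the deposited FPKM scale (reads scaled for both gene length and library size). The median member had a mean of 438 FPKM over the 6 libraries, with quartiles of 314 and 605, and 65 of the 78 members lay between 200 and 900 FPKM. RPLP1, an acidic protein of the stalk that recruits elongation factors, stood above all others with 3356 FPKM. It was followed by RPS2, near the mRNA entry channel, with 1361 FPKM, and RPS15, of the small subunit head, with 1298 FPKM. RPLP1 alone held 10.1% to 11.7% of all reads of the 78 genes. Its stalk partners were lower per length, with 569 FPKM for RPLP2 and 735.5 FPKM for RPLP0, the protein that anchors the stalk. At the other end lay 3 paralogs, RPL22L1 with 6.84 FPKM, RPL7L1 with 19.4 and RPL26L1 with 24.8. Next above them were RPL36 with 38.8 FPKM and the paralog RPS27L with 47.8 FPKM.

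**Figure D1:**
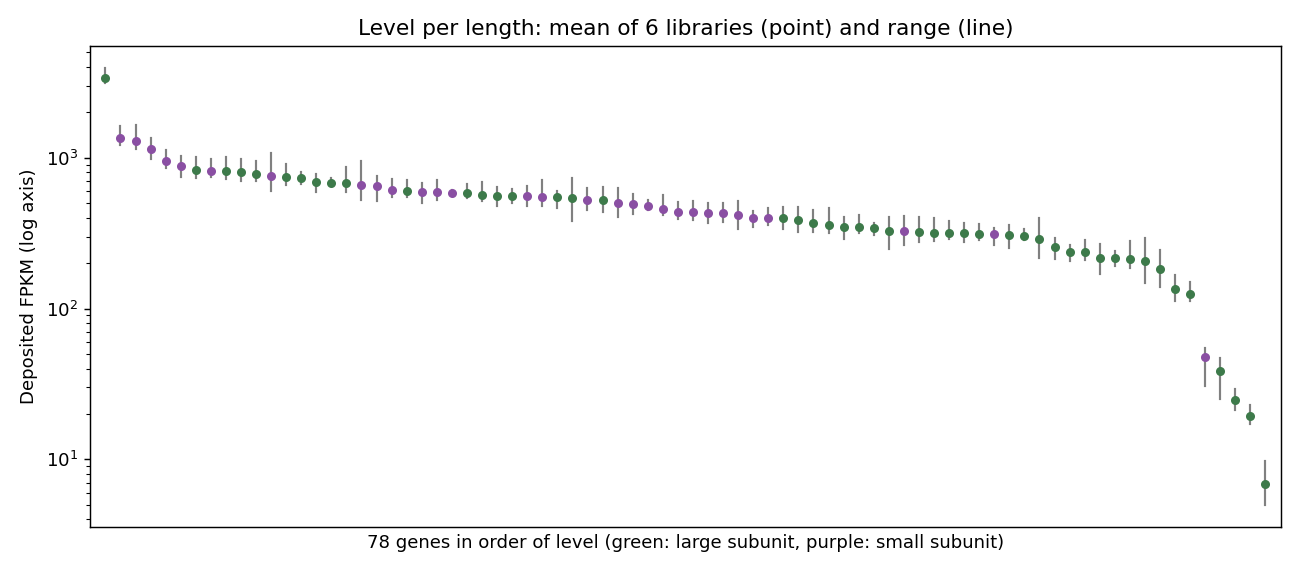
Level per length of each of the 78 ribosomal protein genes: deposited FPKM on a log axis, as the mean of 6 libraries (point) with the range over libraries (line), large subunit in green and small subunit in purple. RPLP1 stands alone at 3356 FPKM, most genes lie between 200 and 900, and the lowest 5 are RPS27L, RPL36, RPL26L1, RPL7L1 and RPL22L1 (genes in order of level, from left to right).

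The FPKM of a few members depends on long gene models. The length that follows from a gene's count and FPKM had a median of 772 bases over the members and exceeded 2000 bases for 3 of them, RPL10 (2655), RPL37A (4349) and RPL13 (4459). RPL37A, a zinc-binding protein of the large subunit, measured 790.1 CPM on average but 182 FPKM, and RPL13 602 CPM but 135 FPKM. Ribosomal protein genes also have many near-identical processed copies in mammalian genomes, and how reads shared between copies were counted is not given in the sources used here, so absolute levels of single members are uncertain.

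High and low IMF muscle were compared to see whether ribosomal protein transcripts differ between them. No member passed the test. In edgeR's quasi-likelihood test, 0 of the 78 had a Benjamini-Hochberg adjusted p under 0.05, where 0.00% of the 15933 genes tested did. At an unadjusted p under 0.05 the count was also 0 of 78 in edgeR, where 7.27% of all tested genes reached that level. The smallest p was 0.0867 (RPS27, adjusted p = 0.752). The DESeq2 Wald test called 0 members, where it called 1.16% of the genes it tested (smallest member adjusted p = 0.589), and limma-voom called 0, where it called 0.00% of all genes (smallest member adjusted p = 0.774). At an unadjusted p under 0.05 both also gave 0 members, where 7.54% of all genes reached that level in DESeq2 and 6.97% in limma-voom. In the authors' deposited table none of the members (0 of 78) had an adjusted p under 0.05, with 0.59 as the smallest, and 0 were marked as regulated.

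The direction of single members depended on the scaling. After TMM scaling 76 of the 78 members had a negative log2 fold (lower in high IMF muscle), where 48.8% of all tested genes did, whereas with scaling by library size only 58 were negative and 20 positive, where 30.9% of all tested genes were negative. The median log2 fold of the members was -0.18 with quartiles of -0.24 and -0.12, beside a median of 0.01 and quartiles of -0.19 and 0.26 over all tested genes. With library size only the 2 medians were -0.06 and 0.15, so the members lay at -0.21 relative to all genes, against -0.19 under TMM. The median standard error of a member's log2 fold was 0.18, as large as the median fold itself. Abundant genes in general lay slightly on the same side: of 1350 tested genes with a mean of at least 100 CPM, 64.5% were on the negative side, and their median log2 fold was -0.09. The members' folds were also close to each other, with an SD of 0.09 on the log2 scale against 0.37 over those abundant genes and 0.59 over all tested genes. By subunit, 47 of 48 large subunit genes were negative with a median of -0.17 (-0.04 with library size only), and 29 of 30 small subunit genes with a median of -0.20 (-0.08 with library size only). The difference between the subunits was not tested.

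**Figure D2:**
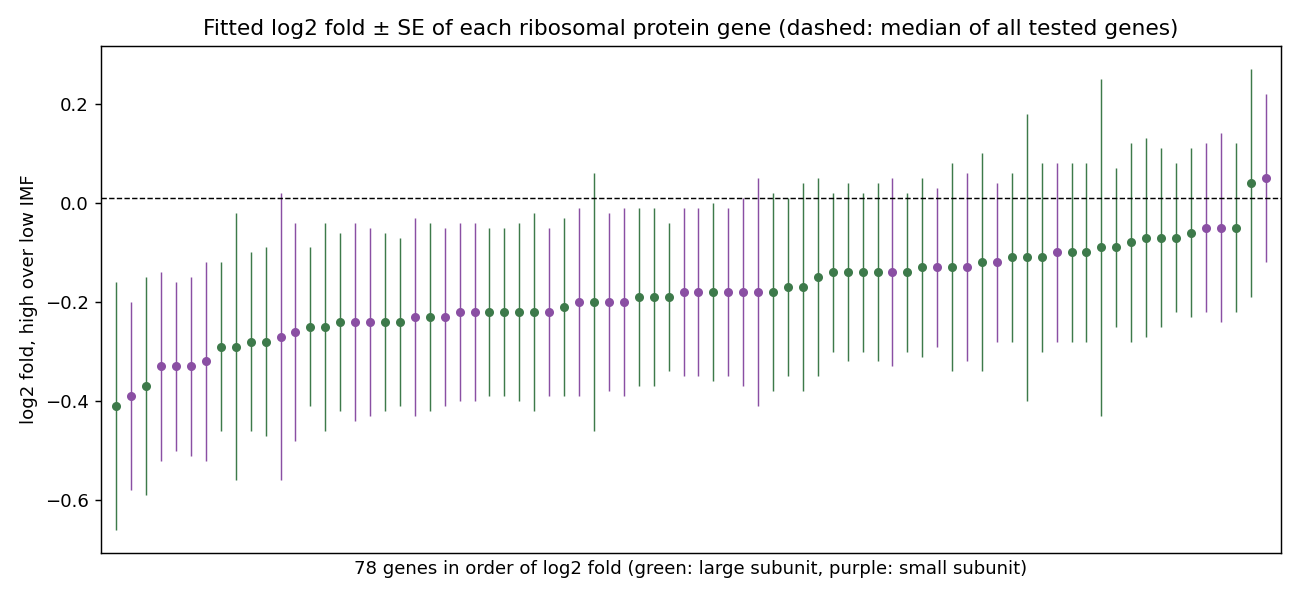
Fitted log2 fold of high over low IMF muscle with its standard error for each of the 78 genes, sorted, with large subunit genes in green and small subunit genes in purple. After TMM 76 of the 78 lie below 0 (58 with library size only), the lowest is RPL10A at -0.41, and none passed the adjusted test. The dashed line marks the median of all tested genes (0.01).

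For 33 of the 78 members every high IMF library lay below every low IMF library in TMM-scaled CPM, where this held for 6.10% of all tested genes. No member had every high IMF library above every low one, against 6.86% of all tested genes. The first count depended on the scaling and on high IMF replicate 3. With library size only, 4 members had separate groups in the lower direction (2.57% of all tested genes), and without high IMF replicate 3 the count under TMM was 58, where 15.1% of all tested genes had all high libraries below all low ones.

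The libraries formed a graded series in which the groups met. The median member deviated from its own 6-library mean by -0.16, -0.12 and 0.01 on the log2 scale in the high IMF group, and by 0.20, 0.07 and 0.02 in the low IMF group. The third high IMF library was thus within 0.01 of the third low IMF library. Low IMF replicate 1 was the highest of the 6 libraries for 61 members, and high IMF replicate 1 was the lowest for 45 and high IMF replicate 2 for 24. High IMF replicate 1 lay below all low IMF libraries for 66 members, high IMF replicate 2 for 64 and high IMF replicate 3 for 39. Without low IMF replicate 1 the median log2 fold was -0.14, and without high IMF replicate 3 it was -0.25.

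On total reads the order of the libraries was different. The 78 genes took 3.51%, 3.39% and 3.04% of all assigned reads in the high IMF group and 4%, 3.22% and 3.2% in the low IMF group, or 3.31% ± 0.244 (SD, n = 3) and 3.47% ± 0.456. The groups overlapped, since high IMF replicates 1 and 2 lay above low IMF replicates 2 and 3. Without low IMF replicate 1 the difference of high minus low changed sign, from -0.16 to 0.103 percentage points. The 20 genes of highest mean count, none of them a member, took 18.7%, 21.8% and 27.9% of reads in the high IMF group and 22.5%, 28.3% and 27.7% in the low IMF libraries. Among the reads outside those 20 genes the members took 4.31%, 4.33% and 4.22% in the high IMF group and 5.16%, 4.49% and 4.42% in the low IMF libraries, and the groups did not overlap. The TMM factors were 1.16, 1.12 and 0.884 for the high IMF group and 1.04, 0.904 and 0.928 for the low IMF libraries, and a factor above 1 lowers a library's scaled values. The part of the 20 most abundant genes in the members' difference was not tested beyond these values.

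**Figure D3:**
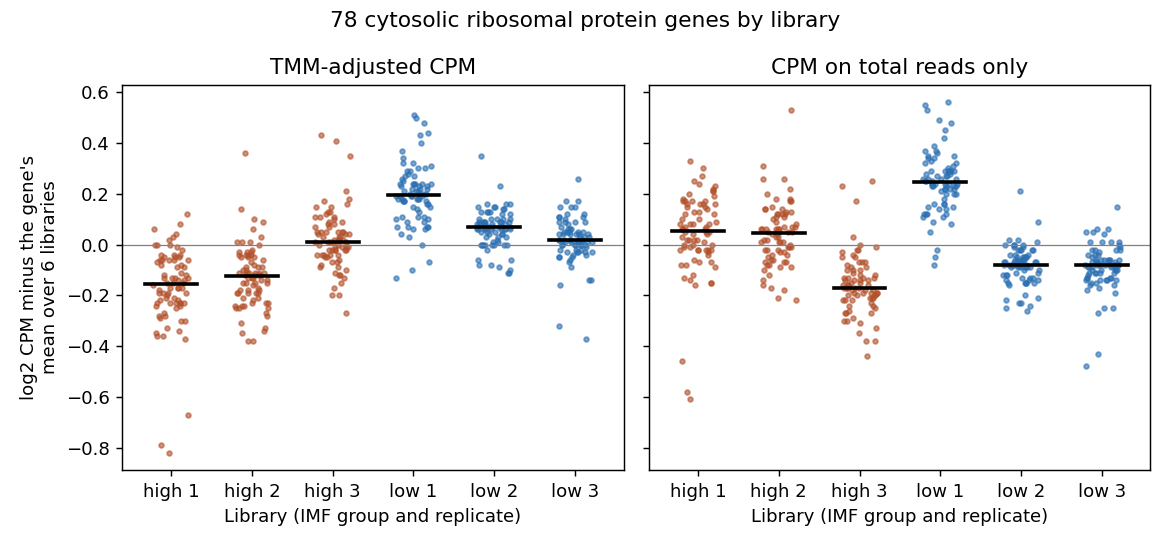
Each point is 1 of the 78 genes in 1 library: its log2 CPM minus its mean over the 6 libraries, after TMM scaling (left) and on total reads only (right), with the median as a black bar, high IMF in orange and low IMF in blue. After TMM the medians are -0.16, -0.12 and 0.01 in the high IMF group and 0.20, 0.07 and 0.02 in the low IMF libraries; on total reads they are 0.06, 0.04 and -0.17 against 0.25, -0.08 and -0.08.

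**Figure D4:**
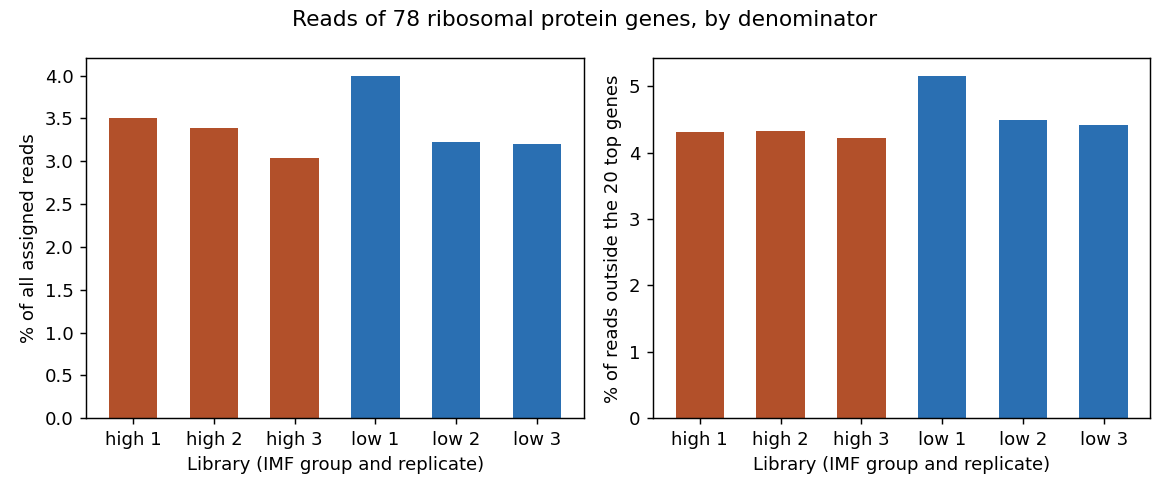
Reads of the 78 genes as a percentage of all assigned reads (left) and of the reads outside the 20 genes of highest mean count (right), 1 bar per library, high IMF in orange and low IMF in blue. The groups overlap on the left (3.04% to 3.51% against 3.2% to 4%) and not on the right (4.22% to 4.33% against 4.42% to 5.16%).

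Reads of small subunit genes over reads of large subunit genes stood at 0.641, 0.611 and 0.602 in the high IMF group and 0.623, 0.617 and 0.61 in the low IMF libraries, with group means of 0.618 ± 0.0204 and 0.617 ± 0.00651 (SD, n = 3). The highest and the lowest ratio were both in the high IMF group.

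The members of largest negative fold came from both subunits. RPL10A, which forms the mobile L1 stalk through which spent tRNA leaves, measured 263, 423 and 422.5 CPM in the high IMF group and 564, 464 and 446 CPM in the low IMF group. Its groups did not overlap, but high IMF replicate 1 lay far below every other library, and the log2 fold of -0.41 ± 0.25 (SE) did not pass (edgeR adjusted p = 0.825). Without that library the log2 fold was -0.23. RPS27, a zinc-binding protein of the small subunit, measured 229, 237 and 249.7 CPM against 379, 278 and 278 CPM. Its high IMF libraries were close together and the spread was in low IMF replicate 1 (log2 fold -0.39 ± 0.19, or -0.23 without that library). RPL37A measured 780.5, 597 and 690.2 CPM against 1030, 823 and 821 CPM, again without overlap and with low IMF replicate 1 highest (log2 fold -0.37 ± 0.22).

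RPS28, at the mRNA exit side of the small subunit, measured 271, 239.6 and 328 CPM in the high IMF group and 354, 347 and 350.0 CPM in the low IMF libraries. Its low IMF libraries were nearly equal, and the log2 fold was -0.33 ± 0.19. RPS13 measured 257, 261 and 293 CPM against 322, 355 and 340.4 CPM with low IMF replicate 1 the lowest of its group (log2 fold -0.33 ± 0.17, edgeR adjusted p = 0.761). RPS3, at the mRNA entry and also a DNA repair protein, measured 386, 389 and 443 CPM against 529.6, 508 and 488 CPM. All 3 high IMF libraries of RPS3 lay below all 3 low ones, with a log2 fold of -0.33 ± 0.18.

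Other members had log2 folds near 0. RPL3, which reaches towards the peptidyl transferase centre, had a log2 fold of 0.04 ± 0.23. RPS4X, RPS24 and RPL38, the last known for its part in the translation of homeobox mRNAs, each had -0.05 after TMM and 0.09, 0.09 and 0.07 with library size only. RPS4X measured 408, 399.9 and 395 CPM against 428, 409 and 407.5 CPM. The SD was 6.43 CPM within the high and 11.2 CPM within the low IMF libraries.

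RPLP1 measured 3045, 3107 and 4031 CPM in the high IMF group and 4251, 4133 and 4042 CPM in the low IMF libraries (log2 fold -0.29 ± 0.27). High IMF replicate 3 lay just under the low IMF libraries, and high IMF replicates 1 and 2 far below. RPLP2 measured 194, 229 and 253.1 CPM against 287, 256 and 253.4 CPM, and RPLP0 780.0, 705 and 859 CPM against 866, 905 and 880.3 CPM. None of the 3 overlapped between the groups, by a very narrow margin for RPLP2, and none passed (edgeR adjusted p = 0.875 to 0.922).

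Several members have known tasks outside the ribosome or in growth signalling. RPS6, the protein phosphorylated by the S6 kinases downstream of MTOR, measured 558, 518 and 526 CPM in the high IMF group and 656.5, 628 and 586 CPM in the low IMF libraries (log2 fold -0.22 ± 0.18). RPS19, the gene most often mutated in Diamond-Blackfan anaemia, measured 331, 312 and 371 CPM against 414, 390.4 and 378 CPM. The groups of both were separate by a narrow margin. RPL5 and RPL11, which bind the 5S ribosomal RNA and the p53 regulator MDM2, overlapped between the groups: RPL5 measured 296, 400.6 and 400.9 CPM against 392, 394 and 375 CPM, and RPL11 271, 229 and 217 CPM against 282, 254.5 and 249 CPM. The log2 folds of -0.08 and -0.13 were 0.05 and 0.02 with library size only, and high IMF replicate 1 was the lowest library of RPL5 and the highest high IMF library of RPL11.

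RPSA, also known as the laminin receptor, measured 502, 389 and 444 CPM against 582, 512 and 479.5 CPM with overlap. RPL13A, often used as a reference gene in muscle studies, measured 704, 705 and 795 CPM against 995, 822 and 798 CPM (log2 fold -0.25 ± 0.21). RPS27A, made as a fusion with ubiquitin, measured 169, 179 and 173 CPM against 228, 183 and 182 CPM, with groups separate by a narrow margin. RPL10, added late in subunit assembly, measured 848, 835 and 925 CPM against 922, 957 and 931.5 CPM, RPS2 1331, 1107 and 1504 against 1612, 1497 and 1362, and RPS15 576, 578 and 691 against 851, 758 and 696. Only RPS15 of these last 3 had separate groups, and its margin was narrow.

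RPL3 and its muscle paralog RPL3L were expressed at near-equal levels. On the FPKM scale RPL3L measured 191, 185 and 236 in the high IMF group and 281, 189 and 192 in the low IMF group, and RPL3 measured 225, 292 and 148 against 244, 171 and 168. RPL3L made up 45.9%, 38.8% and 61.4% of the pair in the high IMF group and 53.5%, 52.5% and 53.3% in the low IMF group. The low IMF libraries were thus nearly identical in this share while the high IMF libraries lay on both sides of them. The log2 ratio of RPL3L to RPL3 in CPM was -0.24, -0.65 and 0.67 in the high IMF group and 0.20, 0.15 and 0.19 in the low IMF libraries, or -0.07 ± 0.68 and 0.18 ± 0.03 (SD, n = 3). The difference of -0.25 was within the spread of the high IMF group (exact permutation test, two-sided, p = 0.7 over 20 arrangements, where 0.1 is the smallest p possible), without high IMF replicate 2 it was 0.04, and without high IMF replicate 3 it was -0.63 with separate groups (exact permutation p = 0.1). In the edgeR fit RPL3L had a log2 fold of -0.20 ± 0.26 (adjusted p = 0.935). The order of the libraries by this ratio can be set beside the fibre genes: their median log2 level was -1.07, -0.22 and 0.66 in the high IMF group and -0.23, 0.52 and 0.43 in the low IMF libraries. High IMF replicate 3 was highest in both measures, but the lowest was high IMF replicate 2 by the ratio and high IMF replicate 1 by the fibre genes. Within the low IMF group the ratio ran only from 0.15 to 0.20 while the fibre level ran from -0.23 to 0.52. By summed fibre CPM low IMF replicate 2 (285000) was above high IMF replicate 3 (280100). The part of fibre content in the ratio was not tested.

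**Figure D5:**
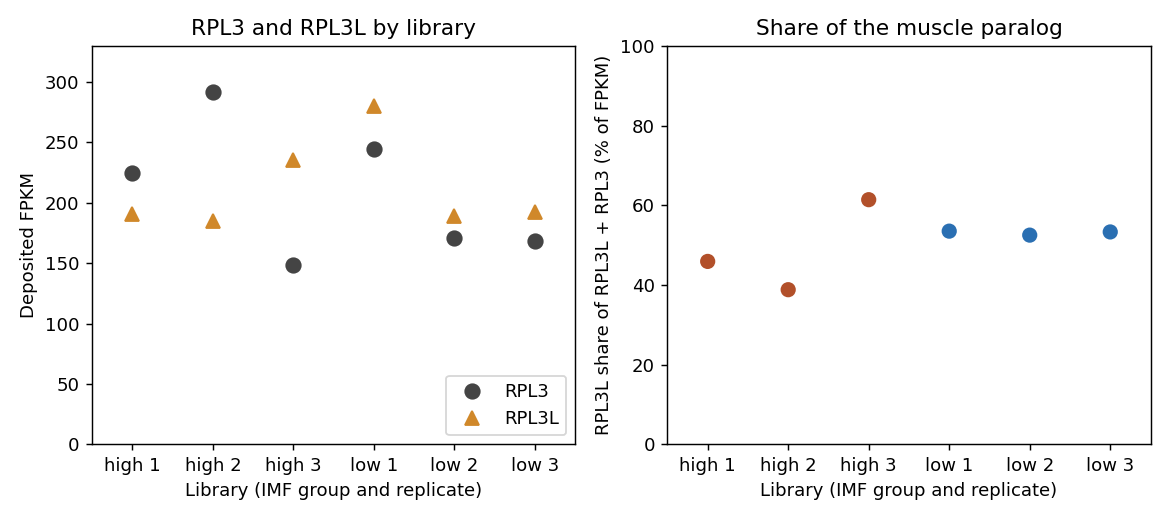
Left, deposited FPKM of RPL3 (circles) and RPL3L (triangles) in each library; right, RPL3L as a percentage of the summed FPKM of the pair, high IMF in orange and low IMF in blue. The share is 52.5% to 53.5% in the low IMF libraries and 45.9%, 38.8% and 61.4% in the high IMF libraries.

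The other paralogs were minor next to their parent genes. On the FPKM scale RPL22L1 made up 1.47% to 2.1% of its pair with RPL22, RPL7L1 2.49% to 3.16% of its pair with RPL7, RPL26L1 8.41% to 10.6% of its pair with RPL26, and RPS27L 4.09% to 8.42% of its pair with RPS27. Groups overlapped in all 4 shares. RPS27L, a target of p53, measured 20.7, 33.8 and 48.6 CPM in the high IMF group and 39.3, 40.9 and 43.7 CPM in the low IMF libraries, so that the high IMF group spanned both the lowest and the highest library. The parent genes RPL7, RPL22 and RPL26 had log2 folds of -0.07 ± 0.18, -0.24 ± 0.18 and -0.07 ± 0.15 (0.07 for RPL7 and for RPL26 with library size only), and the paralogs RPL7L1, RPL22L1 and RPL26L1 of -0.09 ± 0.16, -0.11 ± 0.29 and -0.19 ± 0.15 (0.03 for RPL7L1 with library size only).

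Most members followed the family's level in each library. After the median deviation of the members in a library was taken away, what was left of a member varied with a median SD of 0.091 on the log2 scale over the 6 libraries, and 43 of the 78 members had an SD under 0.1. Only 7 exceeded 0.2: RPL36 (0.42), RPS27L (0.37), RPL3 (0.28), RPL10A (0.26), RPL22L1 (0.23), RPL3L (0.22) and RPL15 (0.22). RPL36 and RPL15, like RPL13 above, are named because of their values. RPL36 measured 7.71, 14.8 and 18 CPM in the high IMF group and 15.8, 17.1 and 10.3 CPM in the low IMF libraries. RPL15 measured 120, 165 and 172 CPM against 142, 170.1 and 168 CPM. In RPL36, RPS27L, RPL10A and RPL15 high IMF replicate 1 was the lowest library, as it was for 45 of all 78 members. It was also lowest in RPL3L, by 222.6 CPM against 222.7 in high IMF replicate 2. Of the 7 genes 3 were paralogs.

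Of the 6 standard ribosomal protein genes outside the naming rule, 5 were in the table. FAU, the fusion that carries RPS30, measured 194, 209 and 241 CPM in the high IMF group and 284, 252 and 245 CPM in the low IMF libraries. Rows with a LOC number were matched by gene identifier in the RefSeq gene table of assembly EquAss-T2T_v2 to RPL17 (log2 fold -0.15 ± 0.17), RPS15A (-0.18 ± 0.16) and RPS29 (-0.13 ± 0.19). With library size only these were -0.01, -0.04 and -0.01. Adding the 15 rows whose deposited description names a cytosolic ribosomal protein, 11 of them tested, left the median log2 fold at -0.18.

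Of the lists of translation partners, assembly factors and TOP regulators, 0 genes were called by edgeR and 0 by DESeq2. Of 17 tested partners, which are elongation and initiation factors and further genes known for TOP mRNAs, 14 were negative in log2 fold (median -0.17, or -0.03 with library size only), and 0 passed. Over all tested genes 48.8% were negative. The elongation factor subunit EEF1G measured 1247, 849.6 and 1049 CPM against 1651, 1328 and 1300 CPM without overlap, and the initiation factor subunit EIF3H 116, 119 and 145 CPM against 161, 152.5 and 146 CPM. EIF3L, another subunit of that initiation factor, lay the other way, with 124, 137 and 133 CPM in the high IMF group and 116, 102 and 107 CPM in the low IMF libraries. EIF3L thus had separate groups in the opposite direction to EEF1G and EIF3H.

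Of 49 tested factors that assemble ribosomes, 27 were negative and 22 positive, and the median log2 fold was -0.03 (0.11 with library size only), and 0 reached an unadjusted p under 0.05. The members of smallest p were NOP58, of the small nucleolar ribonucleoproteins that methylate ribosomal RNA (log2 fold -0.32 ± 0.18), the nucleolar GTPase GNL2 (-0.23 ± 0.13) and the RNA polymerase I subunits POLR1B (-0.27 ± 0.16) and POLR1E (-0.43 ± 0.27). Of 14 tested regulators of TOP mRNAs, 6 were negative and 8 positive with a median of 0.02 (0.16 with library size only), and 0 reached an unadjusted p under 0.05. EIF4EBP1, the translation repressor that MTOR switches off, measured 36.9, 66 and 100.3 CPM in the high IMF group and 151.5, 103 and 99.2 CPM in the low IMF libraries (log2 fold -0.80 ± 0.37, edgeR adjusted p = 0.719). In EIF4EBP1 high IMF replicates 1 and 2 were lowest and low IMF replicate 1 highest, as for the ribosomal proteins. The list as a whole did not have this order. Its median log2 level was -0.05, -0.11 and 0.19 in the high IMF group. In the low IMF libraries it was -0.13, 0.06 and 0.07, so low IMF replicate 1 was lowest. A link of EIF4EBP1 to the ribosomal proteins was not tested. LARP4, EIF4EBP2 and DEPTOR had log2 folds of 0.24 ± 0.17, 0.20 ± 0.17 and -0.30 ± 0.21. Mitochondrial ribosomal proteins are the separate set of the mitochondrial ribosome. Of these, 59 of 73 were negative, where 48.8% of all tested genes were, with a median of -0.21 (-0.09 with library size only). Of the 73, 0 passed in edgeR, and at an unadjusted p under 0.05 in edgeR 6 were lower and 1 higher. Over all tested genes 7.27% reached that level in either direction. DESeq2 called 1 of the 73, where it called 1.16% of all genes it tested. This was MRPS6, which was higher in high IMF muscle, with 64.2, 27.7 and 33.7 CPM against 14.9, 15.4 and 15.1 CPM (edgeR log2 fold 1.47 ± 0.31, DESeq2 adjusted p = 0.00637). The length that follows from the count and FPKM of MRPS6 was 12570 bases. For MRPS28, MRPS18A and MRPS18C of the same set it was 941, 917 and 4126 bases. Which part of so long a gene model the reads came from was not tested. The difference may therefore not be one of MRPS6 mRNA alone.

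Marker genes of other cell types also differed between the libraries. Of the tested genes, 12 of 15 lymphocyte, 13 of 16 macrophage and myeloid, 15 of 15 fibroblast and 9 of 11 adipocyte genes had a positive and 11 of 12 endothelial genes a negative log2 fold after TMM. In edgeR 0 of them passed, and at an unadjusted p under 0.05 there were 7 lymphocyte, 5 macrophage and myeloid, 2 fibroblast and 3 adipocyte genes higher and 4 endothelial genes lower. Over all tested genes 7.27% reached that level in either direction. DESeq2 called 1 macrophage and myeloid and 1 adipocyte gene, both higher, and 1 endothelial gene, which was lower in high IMF muscle. It called 1.16% of all genes it tested. Summed CPM ranged from 37.3 to 70.9 in the high IMF group and 14.6 to 40.1 in the low IMF libraries for 16 lymphocyte genes, 957 to 1366 and 879 to 1367 for 16 macrophage and myeloid genes, 483 to 2509 and 610 to 1353 for 15 fibroblast genes, 423.5 to 1041 and 598 to 665 for 11 adipocyte genes, and 881 to 1210 and 1331 to 1436 for 12 endothelial genes. Of these 5 lists, the endothelial sums alone did not overlap between the groups, and they were lower in the high IMF libraries. Only SFRP2 of the fibroblast and LEP of the adipocyte genes were at 0 in any library, both in low IMF replicate 1. High IMF replicates 1 and 2, where the ribosomal proteins were lowest after TMM, had fibroblast sums of 2509 and 2053 CPM and the lowest fibre sums of the 6 libraries, and their myeloid sums were 1366 and 1070 CPM. Low IMF replicate 1, where they were highest, had a fibroblast sum of 610 CPM, a fibre sum of 191200 CPM and a myeloid sum of 1367 CPM, the highest of the 6 libraries. The other libraries did not follow the same order. High IMF replicate 3 had the lowest fibroblast sum (483 CPM), with a median ribosomal protein deviation of 0.01. Low IMF replicates 2 and 3 had fibroblast sums of 1184 and 1353 CPM, with median deviations of 0.07 and 0.02. The part of cell makeup in the ribosomal protein levels was not tested.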

How the data were processed

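RNA-seq of 6 longissimus dorsi libraries was analysed, 3 of high and 3 of low intramuscular fat, grouped by their titles. The authors deposited raw read counts and FPKM per gene in 1 table with their own comparison (log2 fold changes and p-values), per the file headers; the per-sample files hold the same values. HISAT2 and the build mm9 are named per the submitters' processing notes; mm9 is a mouse build, and for the donkey gene rows the build, counting tool and strand setting were not given in these sources. The labels name 2 sequencing instruments without saying which library ran on which, so batches could not be compared. The members and lists were chosen with earlier results of these data known.

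Counts were tested with edgeR 4.0.16 (R 4.3.3): default filter on low counts (15933 of 20873 genes), TMM factors, a quasi-likelihood F test of high against low, and Benjamini-Hochberg adjustment over all tested genes at 0.05. Standard errors are the absolute log2 fold divided by the square root of F, and fitted folds use a prior count of 0.125. DESeq2 1.42.0, limma 3.58.1 (voom), other scalings and filters, a replicate block and each library left out were alternatives. The edgeR script was tested on simulated data. Levels between genes were compared in the deposited FPKM, and the RPL3L to RPL3 ratio by a two-sided exact permutation test. Groups were said not to overlap where all 3 libraries of 1 group lay below all 3 of the other in TMM-scaled CPM. Named genes were the 5 members of most positive and 5 of most negative log2 fold, the paralogs and their parents, the stalk proteins and 10 members with well-known roles, the 3 highest and 3 lowest by FPKM, and up to 4 genes of smallest p in each translation list; genes named otherwise are marked. Some genes that this rule names are not reported here.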

Additional observations from a re-analysis of the deposited data

How the results depend on the processing

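The count of members called was 0 under all 14 alternatives, with the smallest edgeR adjusted p of 0.315 without high IMF replicate 3, and in DESeq2 0.0869 without that library (a leave-one-out chosen after seeing the data). The median log2 fold of the members was -0.06 with library size only and -0.25 to -0.14 with 1 library left out. The count of members with separate groups was 4 with library size only and 34 to 58 with 1 library left out, 58 being without high IMF replicate 3. The share of all tested genes moved too, from 6.10% to 2.57% with library size only and to 8.03% to 15.1% with 1 library left out. The share of reads, high minus low, ranged from -0.297 to 0.103 percentage points with 1 library left out, and was positive without low IMF replicate 1. The RPL3L to RPL3 log2 ratio, high minus low, ranged from -0.63 to 0.04 over the same omissions, with 0.04 without high IMF replicate 2. With library size only, log2 folds were positive for RPL38 (0.07), RPS24 (0.09), RPS4X (0.09), RPL7L1 (0.03), RPL7 (0.07), RPL26 (0.07), RPL5 (0.05), RPL11 (0.02), RPL10 (0.03) and RPL15 (0.06). RPL3 had -0.03 with low IMF replicates 2 and 3 summed. With 1 library left out the ranges crossed 0 for RPL15 (-0.17 to 0.06), RPL22L1 (-0.28 to 0.15), RPL3 (-0.17 to 0.16), RPL36 (-0.36 to 0.17), RPL38 (-0.15 to 0.01), RPL5 (-0.17 to 0.04) and RPS24 (-0.13 to 0.10). Of 51 named genes, 38 kept their sign under every alternative run. Some of the 51 were chosen by their fold or p in these same libraries, so this count is no independent check. Without 1 library, log2 folds shrank for RPL10A and RPS27 (both to -0.23), RPL13A (-0.15), RPL22 (-0.14) and RPLP2 (-0.15), and ranged from -0.48 to -0.08 for RPL3L and -0.61 to -0.02 for RPS27L. The cause of these changes was not tested. Same-numbered libraries had deviations correlated at 0.196, 0.149 and 0.020, and differently numbered ones at -0.216 to 0.206. With so few libraries these values cannot decide whether the numbers mark pairs. The labels do not say that a number marks a shared animal or batch, so the main fit held no block. With a replicate block 0 members were called and the median log2 fold was -0.19.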
